A study of Mus musculus with 24 samples.

Results

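Spinal motor neurons were generated from a mouse embryonic stem cell line that carries an *Hb9*-GFP reporter, in which GFP is driven by the promoter of *Mnx1* (the gene for HB9, a homeobox factor of postmitotic motor neurons). As embryoid bodies, the cells received SAG, a Smoothened agonist (500 nM), and retinoic acid (100 nM) over 5 days and were then sorted by FACS, without any disease mutation, so that both fractions shared the line, the reporter and the patterning. The study states that all its cultures received a mitotic inhibitor and does not say whether this was before the sort. The comparison rests on 12 of the 24 libraries of the study, columns of a deposited RPKM table that were chosen by their labels: the GFP-positive fraction of 6 spinal cultures and the GFP-negative fraction with the same replicate number. All cells came from a single line, and the labels do not say whether the replicates were separate differentiations, so that p values measure the spread between these libraries. GFP marks the cells that switch on *Hb9*, and the GFP-negative fraction is whatever else the culture held.

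In the ventral neural tube, hedgehog signaling and retinoic acid induce progenitors that carry *Olig2*, and these leave the cell cycle to become motor neurons that express *Mnx1*, *Isl1* and *Lhx3*. The LIM factors ISL1 and LHX3 act in a shared complex that switches on cholinergic genes such as *Chat* and *Slc18a3*. Cultured embryoid bodies can also hold floor plate, glial precursors, undifferentiated stem cells and cells of the endoderm lineage.

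Each fraction was described in all 6 pairs and again without pair 4, whose fractions were nearly alike. Values are RPKM divided by a scaling factor of the library (normalised RPKM), and differences are log2(normalised RPKM + 1) of the GFP-positive minus that of the GFP-negative library, which understates the difference of genes near 1 RPKM. A gene was called where the adjusted p of limma, with the pair as a block, was under 0.05 over 14733 genes tested of 22889 in the table. With 6 pairs, 110 genes (0.747%) were called, 40 higher (0.271%) and 70 lower (0.475%) in GFP-positive cells. Without pair 4, 687 genes (4.66%) were called, 331 higher (2.25%) and 356 lower (2.42%), and all 110 genes of the first fit were among them, in the same direction. Pair 4 was left out because its fractions were alike, which is known from the same values and leans the second fit towards a difference. The median difference over all genes tested was 0.012 in both fits. Calls of the 6 pairs were fragile, since none remained past the threshold when any of pairs 1, 2, 3, 5 or 6 was left out in turn with pair 4 kept in (between 1948 and 2525 genes at an unadjusted p under 0.05), and without pair 4 the count lay between 238 and 620 when a further pair was left out. Within the less deeply sequenced pairs 1 to 3 the count was 132, and within the more deeply sequenced pairs 5 and 6 it was 50.

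The libraries held an estimated 748310 to 7610753 reads, with 748310 to 4263379 in replicates 1 to 4 and 7032639 to 7610753 in replicates 5 and 6, as the steps between low RPKM values show. In the GFP-negative library of pair 2, 68.8% of the summed RPKM fell on 3 gene models (*Gm10800*, *Gm10801* and *Gm21738*), against 17.8% in its GFP-positive partner and at most 5.44% elsewhere. The labels were checked against summed marker levels. The motor neuron markers include *Mnx1*, on whose reporter the cells were sorted, so their sum is not independent of the sort. The 8 motor neuron markers ran from 52.6 to 339.2 normalised RPKM (median 306.3) in GFP-positive and from 3.92 to 72.9 (median 17.7) in GFP-negative libraries, the lowest of the first and the highest of the second being pair 4. The 6 neural progenitor markers were higher in the GFP-negative library of 5 of 6 pairs, and those of floor plate ran from 1.27 to 117.9 over the 12 libraries, of interneurons from 0.554 to 53.4, of mesoderm, muscle and vessels from 0.0776 to 9.78, of glia from 0.427 to 6.92 and of neural crest from 0 to 1.20. The summed glial markers were higher in the GFP-positive library of 6 of 6 pairs and those of floor plate in 1 of 6, and their part in the differences was not tested. The glial sum rested on *Mbp*. The means of *Gfap* and *Aqp4* were 0 and 0.013 in GFP-positive against 0.18 and 0.077 in GFP-negative libraries. The number of genes above 0.1 RPKM differed by -390.5 on average (GFP-positive minus GFP-negative, SD 2176, n = 6 pairs, exact sign permutation p = 0.719, smallest p possible 0.03125).

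Pair 4 stood apart from the other 5 pairs. The SD of its log2 differences over the genes tested was 0.518, against 0.863 to 1.18 in the others, and 39 genes were higher and 38 lower by more than 2 on the log2 scale, against 240 to 615 higher and 171 to 722 lower in the others. As a description over genes of libraries that differ in depth, the differences of any 2 of the other pairs correlated with r from 0.238 to 0.513, whereas those of pair 4 correlated with theirs at -0.013 to 0.020. Of the 331 genes called higher without pair 4, 156 were higher in pair 4 and the median difference there was -0.039, against 1.81 in the other pairs. Of the 356 called lower, 183 were lower in pair 4 (median -0.014 against -1.80). For the genes called higher, both pair 4 libraries were mostly nearer the mean of the other GFP-negative libraries, with 17.8% and 19.3% of the genes nearer the GFP-positive mean. For the genes called lower, 66.01% and 66.3% lay nearer the GFP-positive mean. The median level of the first set, as log2(normalised RPKM + 1), was 1.92 and 1.95 in pair 4 against 3.80 in the other GFP-positive and 1.74 in the other GFP-negative libraries, and that of the second set was 2.21 and 2.22 against 1.39 and 3.74. The libraries labelled GFP-positive 4 and GFP-negative 4 also held the most RNA of the pluripotency markers *Pou5f1*, *Nanog* and *Zfp42*, with summed levels of 196.3 and 229.7 normalised RPKM against medians of 22.7 and 9.17 over the 6 libraries of each fraction. Over the 18 pluripotency genes tested, the sum was instead highest in GFP-positive 5, at 17206, against 4746 in GFP-positive 4 and 5130 in GFP-negative 4. Mitochondrial genes took 22.6% of the summed RPKM in GFP-positive 4 and 17.3% in GFP-negative 4, the highest shares of the 12 libraries. The part of these properties in the likeness of the 2 fractions was not tested.

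**Figure D1:**
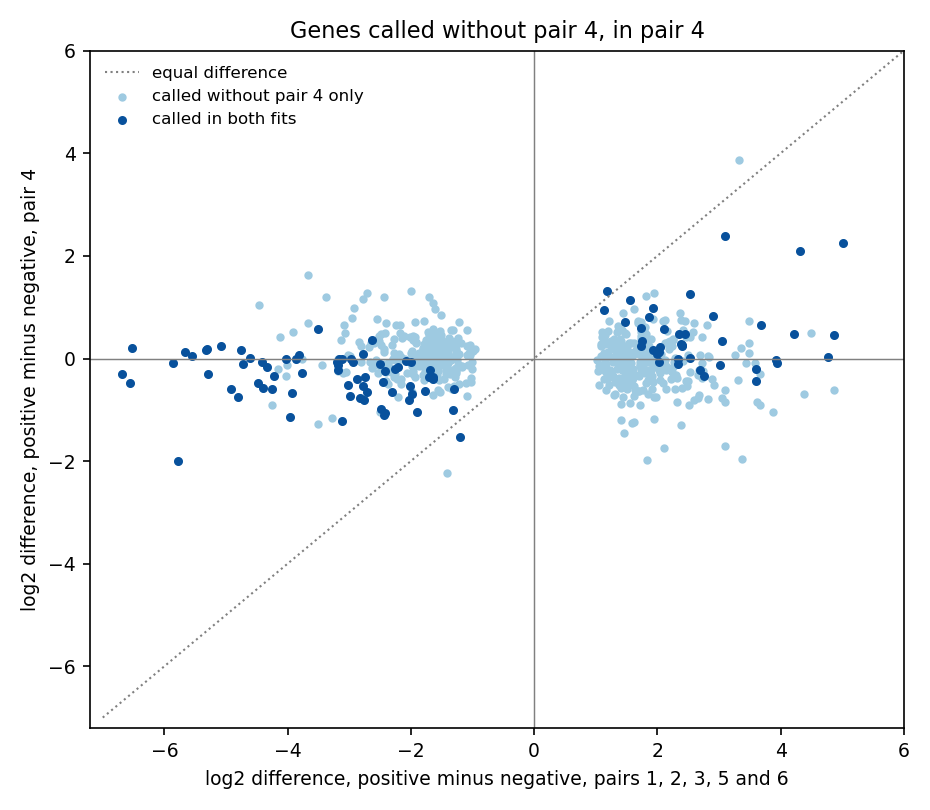
Each of the 687 points is a gene called without pair 4, with its mean log2 difference in pairs 1, 2, 3, 5 and 6 on the x axis and its log2 difference in pair 4 on the y axis (GFP-positive minus GFP-negative, log2 of normalised RPKM + 1). Dark points are the 110 genes called in both fits, the dotted line marks equal differences, and most points lie along the horizontal zero line, with a median of -0.039 in pair 4 for genes called higher and -0.014 for genes called lower.

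The gene of the reporter and the LIM homeobox factors of motor neurons were far higher in GFP-positive than in GFP-negative cells of 5 pairs and not in pair 4. *Mnx1* (chromosome 5, 29473034 to 29478470, GRCm38) ran from 35.5 to 199.7 (median 91.5) in GFP-positive and from 0.187 to 54.9 (median 3.32) in GFP-negative libraries. The highest GFP-negative value was that of pair 4, where the library labelled GFP-positive held 35.5, less than its partner, and without pair 4 the groups did not overlap, as for 1.72% of the genes tested. The reporter gene was therefore not called with 6 pairs (log2 difference 3.96, SE 0.79, adjusted p = 0.0517) and was called without pair 4 (log2 difference 4.87, SE 0.54, adjusted p = 0.00123). *Isl1* (chromosome 13, 116298281 to 116309689, GRCm38) lay at 6.29 to 117 (median 77.9) against 0.565 to 13.5 (median 4.97) and was called in both fits, at log2 difference 3.28, SE 0.53, adjusted p = 0.0373 with 6 pairs and log2 difference 3.95, SE 0.30, adjusted p = 0.000149 without pair 4. Its lowest GFP-positive value, 6.29, was that of pair 4.

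*Lhx3*, the partner of *Isl1*, ran from 3.39 to 80.5 (median 34.0) in GFP-positive and from 0 to 5.19 (median 3.34) in GFP-negative libraries (log2 difference 2.93, SE 0.53, adjusted p = 0.0451 with 6 pairs, log2 difference 3.61, SE 0.30, adjusted p = 0.000213 without pair 4). Its level split by replicate set, with 50.3 to 80.5 in the GFP-positive libraries of pairs 1 to 3 against 6.08 and 17.6 in pairs 5 and 6. *Lhx4*, its close relative, lay at 2.17 to 50.5 (median 20.5) against 0 to 2.63 (median 1.52) (log2 difference 2.97, SE 0.49, adjusted p = 0.0373 and log2 difference 3.61, SE 0.26, adjusted p = 0.000121). *Lhx1*, a LIM factor of lateral motor columns and of several interneurons, was at 4.23 to 19.12 (median 6.55) against 0 to 3.29 (median 0.176), and its 6 GFP-positive libraries all lay above the 6 GFP-negative ones, as for 0.136% of the genes tested (log2 difference 2.59, SE 0.45, adjusted p = 0.04 and log2 difference 3.04, SE 0.38, adjusted p = 0.00244). *Isl2*, a later paralog of *Isl1*, ran from 1.15 to 7.94 (median 4.70) against 0 to 1.21 (median 0.527) and was higher in 6 of 6 pairs, yet it passed the threshold only without pair 4 (log2 difference 1.74, SE 0.35, adjusted p = 0.0517 with 6 pairs, log2 difference 1.93, SE 0.38, adjusted p = 0.021 without).

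The list of motor neuron transcription factors held 17 genes, and all 17 were tested. It also includes *Aldh1a2*, which encodes an enzyme and not a transcription factor (log2 difference 0.31 without pair 4, not called). With 6 pairs, 4 were called higher (*Isl1*, *Lhx1*, *Lhx3* and *Lhx4*) and none lower. Without pair 4, 10 were called higher, none lower, and all 17 genes of the list had a positive difference (median 1.69, against 0.012 for all genes). Both counts include *Mnx1*, on whose reporter the cells were sorted. The further members were the HNF6 gene *Onecut1* (1.86), *Ebf2* (2.14), *Pou3f1* (1.56) and *Neurod4* (1.17), all as log2 differences without pair 4. In the libraries of pair 4 the median of the list was -0.093.

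Some cholinergic genes were called without pair 4 only. *Slc18a3*, the vesicular acetylcholine transporter, is read from the same locus and strand as *Chat*, with an annotated start 1059 bases downstream of the start of *Chat* (RefSeq, GRCm38.p6), and transcripts that overlap cannot be told apart by reads over their shared part. Its level was 0.787 to 62.3 (median 17.2) in GFP-positive and 0 to 3.96 (median 2.01) in GFP-negative libraries, called without pair 4 (log2 difference 3.10, SE 0.43, adjusted p = 0.00396) and not with it (log2 difference 2.44, SE 0.59, adjusted p = 0.0727). *Chat*, which encodes choline acetyltransferase, was low, at 0.292 to 6.88 (median 2.60) against 0 to 1.96 (median 0.367). It was higher in 6 of 6 pairs, pair 4 included, and reached the threshold in neither fit (log2 difference 1.17, SE 0.29, adjusted p = 0.0788 and log2 difference 1.21, SE 0.34, adjusted p = 0.0781). *Slc5a7*, the choline transporter that feeds acetylcholine synthesis, was below the filter: the GFP-positive libraries of pairs 5 and 6 held 4.97 and 4.92, the other 4 held at most 0.187, and the GFP-negative library of pair 5 alone was above 0 in its fraction, at 1.06. Of 10 cholinergic genes tested, none was called with 6 pairs and 4 were called higher without pair 4, the others being the nicotinic receptor subunits *Chrna4* (1.78) and *Chrnb2* (1.73) and the acetylcholinesterase gene *Ache* (1.16).

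**Figure D2:**
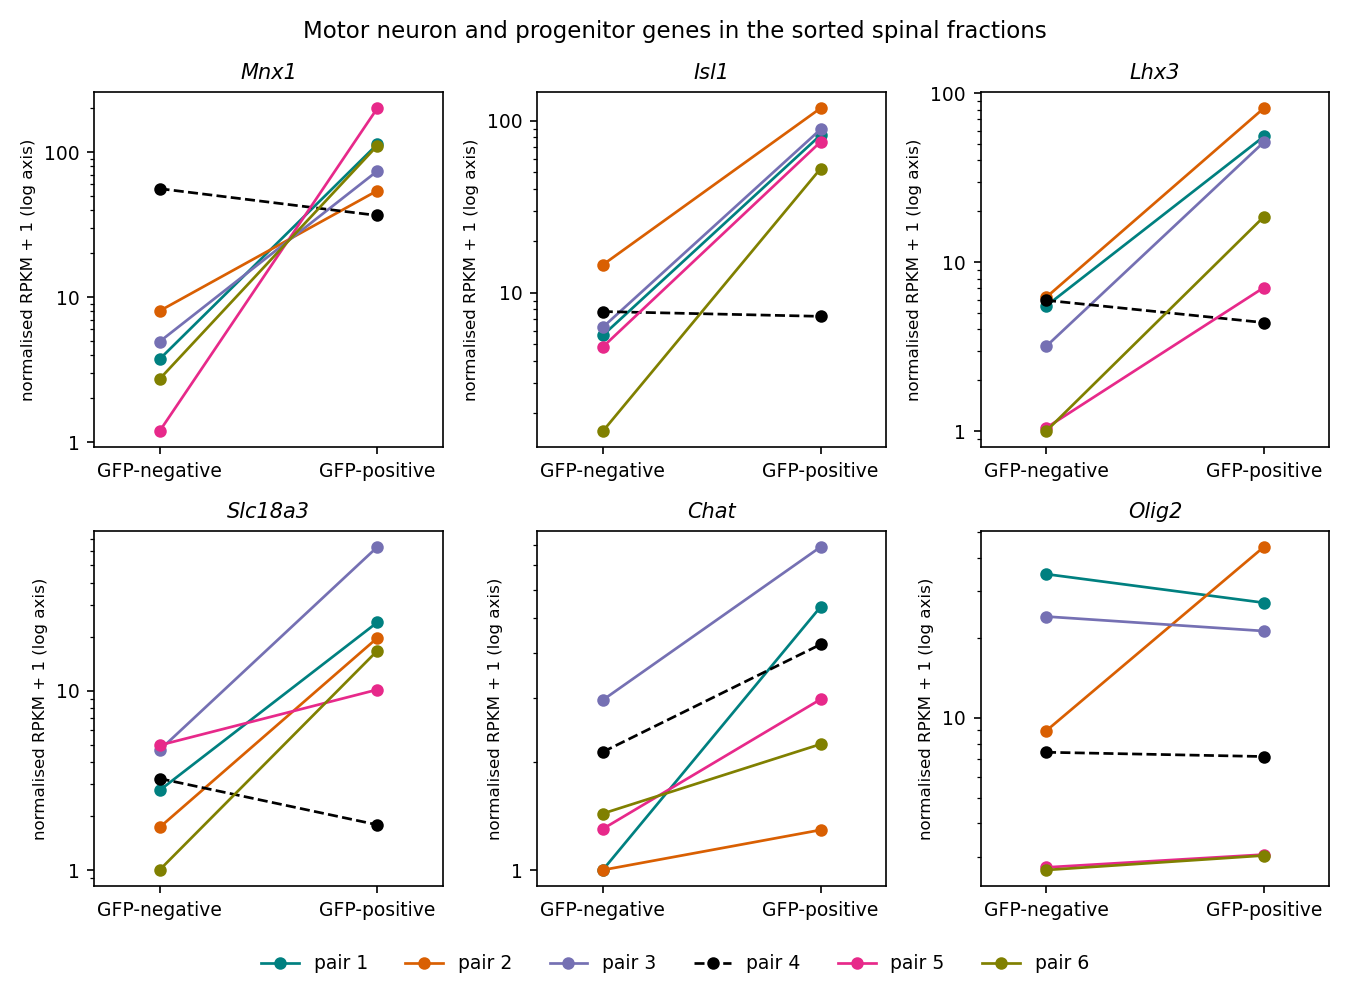
Each panel shows a gene in the 12 libraries as normalised RPKM + 1 on a log axis, with the GFP-negative and GFP-positive library of a pair joined by a line and pair 4 dashed. *Mnx1*, *Isl1* and *Lhx3* rise steeply in 5 pairs and are lower in the GFP-positive library of pair 4, *Chat* is higher in all 6 pairs at a low level, and *Olig2* moves either way.

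No listed gene of the progenitor domain was called in either fit, where 0.747% (6 pairs) and 4.66% (without pair 4) of all genes tested were called. *Olig2*, which marks motor neuron progenitors, ran from 2.03 to 43.1 (median 13.2) against 1.67 to 33.8 (median 7.17) and was higher in 3 of 6 pairs (log2 difference 0.34, SE 0.34, adjusted p = 0.657 and log2 difference 0.42, SE 0.39, adjusted p = 0.606; without pair 2 the sign turned, at -0.050 with 5 pairs and -0.049 without pairs 2 and 4). Its level differed more between replicates than between fractions, at 1.67 to 2.05 in the 4 libraries of pairs 5 and 6. None of the 15 motor neuron progenitor factors tested was called in either fit, although with pairs 2 and 4 both left out 1, *Irx5*, was called higher. Among 11 proneural and Notch ligand genes, *Neurod1* (1.92) was called higher without pair 4 and none was called with 6 pairs or without pairs 2 and 4.

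Some radial glia and neural stem cell genes were called lower in GFP-positive cells. Of 22 tested, 1 was called lower with 6 pairs and 7 without pair 4 (5 without pairs 2 and 4), none higher, and without pair 4 the difference was negative for 19 and positive for 3, with a median of -0.88. *Zfp36l1*, which encodes an RNA-binding protein that destabilizes mRNAs and is abundant in radial glia, was the member called in both fits, at 5.26 to 24.9 (median 15.7) against 28.1 to 83.0 (median 65.8) (log2 difference -1.87, SE 0.32, adjusted p = 0.0394 and log2 difference -2.21, SE 0.25, adjusted p = 0.00144), and its GFP-positive libraries all lay below the GFP-negative ones, as for 0.502% of the genes tested. The Notch effectors *Hes1* (-2.66) and *Hes5* (-1.93) were called lower without pair 4. So were *Fabp7* (-1.49), *Hopx* (-2.36), *Ednrb* (-1.53) and *Rfx4* (-1.56). *Sox2*, a factor of neural progenitors and of pluripotent cells, lay at 17.9 to 109 (median 37.3) against 34.6 to 164 (median 89.2) and was called in neither fit (log2 difference -1.08, SE 0.32, adjusted p = 0.117 and log2 difference -1.29, SE 0.33, adjusted p = 0.0544). In GFP-positive 4 and GFP-negative 4 it was at 109 in both.

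No listed gene of DNA replication or mitosis was called in either fit, against 0.747% (6 pairs) and 4.66% (without pair 4) of all genes tested. *Mki67*, a marker of cycling cells, ran from 4.26 to 39.6 (median 16.6) in GFP-positive and from 15.6 to 66.4 (median 30.1) in GFP-negative libraries, lower in 6 of 6 pairs (log2 difference -1.17, SE 0.34, adjusted p = 0.114 and log2 difference -1.39, SE 0.36, adjusted p = 0.0579). Without pair 4, 21 of the 22 replication genes and 22 of the 22 mitosis genes had a negative difference (medians -0.80 and -0.89), and when pair 2 was also left out, 1 mitosis gene, *Ccna2*, was called lower. The list of 11 cell cycle exit genes also holds genes of D-type cyclins, which promote cycling. Of the 11, the D-type cyclin gene *Ccnd2* was called lower without pair 4 (log2 difference -1.65, SE 0.26, adjusted p = 0.00835), at 4.35 to 23.4 (median 8.75) against 10.01 to 89.2 (median 24.8).

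Most listed genes of the neuronal cytoskeleton were called higher in GFP-positive cells without pair 4. Of 22 genes of the neuronal cytoskeleton and axon growth, 4 were called higher with 6 pairs and 19 without pair 4, none lower in either fit (18 higher without pairs 2 and 4), and all 22 had a positive difference without pair 4, with a median of 2.43. *Prph*, the intermediate filament peripherin of motor and sensory neurons, lay at 6.45 to 48.5 (median 22.0) against 1.41 to 8.38 (median 3.33) (log2 difference 2.24, SE 0.43, adjusted p = 0.0494 and log2 difference 2.76, SE 0.29, adjusted p = 0.000992). *Crmp1* (2.39) and *Dpysl3* (2.34), collapsin response mediator genes, and *Ncam1* (2.03) were the others called in both fits. The neurofilament genes *Nefl* (log2 difference 3.49, SE 0.58, adjusted p = 0.0103) and *Nefm* (log2 difference 3.50, SE 0.60, adjusted p = 0.0114), the alpha-internexin gene *Ina* (3.67), *Stmn2* (3.44), *Tubb3* (3.32) and *Mapt* (2.81) were called without pair 4. *Nefl* lay at 8.42 to 336 (median 216) against 1.96 to 68.9 (median 8.53), and in the GFP-negative fraction its higher values, 57.6 and 68.9, were those of pairs 5 and 6.

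RNA-binding and synaptic genes followed. Of 14 neuronal RNA-binding protein genes, 2 were called higher with 6 pairs and 7 without pair 4, none lower (8 higher without pairs 2 and 4). *Elavl2*, a neuronal Hu protein gene, was at 3.75 to 65.4 (median 25.3) against 3.59 to 5.43 (median 4.54) (log2 difference 2.20, SE 0.41, adjusted p = 0.0453 and log2 difference 2.69, SE 0.28, adjusted p = 0.000847), and *Elavl4* at 11.4 to 129 (median 102) against 9.33 to 36.1 (median 14.9) (log2 difference 2.05, SE 0.38, adjusted p = 0.0451 and log2 difference 2.40, SE 0.33, adjusted p = 0.00389). *Rbfox3*, which encodes NeuN, was called without pair 4 (2.26). Of 23 genes of synaptic vesicles and release, 1 was called higher with 6 pairs, *Syt4* (log2 difference 2.49, SE 0.43, adjusted p = 0.0394), and 12 without pair 4 (10 without pairs 2 and 4), none lower in these fits. The synuclein gene *Sncg* had the highest level of these, at 10.9 to 1033 (median 516) against 10.3 to 307 (median 25.8) (log2 difference 3.26, SE 0.50, adjusted p = 0.0067 without pair 4).

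Some guidance and channel genes were called without pair 4 only. Of 36 axon guidance genes, none was called with 6 pairs and 3 were called higher without pair 4 (1 without pairs 2 and 4): *Nrp2* (1.73), *Plxna3* (1.24) and *Robo1* (1.21). The guidance ligands *Slit2* (2.02) and *Slit3* (2.05), which motor neurons and floor plate both express, stood in the floor plate list and were called higher without pair 4 (*Slit3* also without pairs 2 and 4). Of 16 ion channel genes, 4 were called higher without pair 4 (5 without pairs 2 and 4) and none with 6 pairs, and all 16 had a positive difference without pair 4. The 4 were the calcium channel genes *Cacna1b* (1.77) and *Cacna2d1* (2.07) and the sodium channel genes *Scn3a* (1.91) and *Scn3b* (2.24).

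Some *Hox* genes, which mark position along the body axis, passed without pair 4, where 2.25% of all genes tested were called higher. Of 23 *Hox* genes tested, none was called with 6 pairs and 3 were called higher without pair 4, *Hoxa5* (1.73), *Hoxb5* (1.52) and *Hoxc4* (1.32), which belong to brachial and cervical levels, and the median difference of the list was 0.36. *Hoxa5* lay at 18.0 to 210.2 (median 174) against 13.1 to 81.1 (median 40.1), with the lowest GFP-positive value, 18.0, in pair 4. Of the 39 *Hox* genes, 16 did not enter the test, among them *Hoxc9* to *Hoxc13* and *Hoxd10* to *Hoxd13* of thoracic to sacral levels.

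The hedgehog and retinoic acid targets, read out because both agents were given to the whole culture, held a gene of the largest differences. *Cyp26a1*, which encodes the enzyme that degrades retinoic acid and is itself induced by it, ran from 0 to 18.3 (median 2.17) in GFP-positive and from 22.8 to 187 (median 101) in GFP-negative libraries (log2 difference -4.46, SE 0.64, adjusted p = 0.0325 and log2 difference -5.29, SE 0.32, adjusted p = 3.89e-05). Its GFP-positive libraries all lay below the GFP-negative ones, as for 0.502% of the genes tested. The retinaldehyde reductase gene *Dhrs3* was called lower without pair 4 (-2.002). The other 16 of the 18 genes tested were called in neither fit.

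The largest differences of the table were genes higher in GFP-negative cells. Of 24 endoderm genes listed, 18 were tested, 9 were called lower in GFP-positive cells with 6 pairs and 15 without pair 4 (14 without pairs 2 and 4), none higher, with a median difference of -3.32 without pair 4 and -0.042 in pair 4. *Gata6* and *Gata4*, zinc finger factors of primitive and definitive endoderm, lay at 0 to 1.06 (median 0.158) against 2.10 to 33.2 (median 19.2) and at 0 to 0.378 (median 0.0408) against 0.667 to 27.5 (median 10.6). Neither overlapped between the fractions, with GFP-positive libraries all below as for 0.502% of the genes tested (*Gata6* log2 difference -3.64, SE 0.51, adjusted p = 0.0325 and log2 difference -4.25, SE 0.33, adjusted p = 0.000149, *Gata4* log2 difference -3.19, SE 0.49, adjusted p = 0.0325 and log2 difference -3.77, SE 0.33, adjusted p = 0.000296). *Sox17*, a SOX factor of endoderm, was at 0 in 5 of 6 GFP-positive libraries and at 0.101 in the other, against 0.312 to 11.7 (median 5.70) in GFP-negative libraries (log2 difference -2.46, SE 0.41, adjusted p = 0.0373 and log2 difference -2.87, SE 0.36, adjusted p = 0.00244).

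Genes of proteins that endoderm secretes or takes up were also in the list. The retinol carrier gene *Rbp4* was at 0 to 6.71 (median 1.45) against 4.30 to 599.6 (median 83.1) (log2 difference -5.15, SE 0.56, adjusted p = 0.0325 and log2 difference -5.78, SE 0.39, adjusted p = 8.58e-05). The endocytic adaptor gene *Dab2* (-4.41) was called in both fits. *Ttr* (-4.16), *Apoa1* (-2.48) and *Cubn* (-2.30) were called without pair 4. The simple epithelial keratin genes *Krt8* (-4.76) and *Krt19* (-2.74) were called in both fits and *Krt18* (-4.12) without pair 4. In pair 4 the summed level of the defining endoderm markers was 2.26 in the GFP-positive and 2.19 in the GFP-negative library, against 0.753 to 10.6 (median 1.15) over all GFP-positive and 2.19 to 382.8 (median 48.1) over all GFP-negative libraries, and 1 of the 6 defining markers was at 0 in all GFP-positive libraries. Over the 18 endoderm genes tested, the sum was instead 658 in GFP-positive 4 and 654 in GFP-negative 4. The other GFP-positive libraries held 18.1 to 180.5 and the other GFP-negative libraries 446 to 1799. In bulk libraries, fewer cells of a type and less RNA per cell cannot be told apart.

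Genes of basement membrane proteins were among the largest differences. *Sparc*, a collagen-binding matrix protein gene, ran from 11.6 to 28.0 (median 22.4) in GFP-positive libraries and from 26.0 to 2454 (median 712) in GFP-negative libraries (log2 difference -4.61, SE 0.70, adjusted p = 0.0325 and log2 difference -5.55, SE 0.33, adjusted p = 3.89e-05), the lowest GFP-negative value being that of pair 4. *Col4a1* and *Col4a2*, the chains of type IV collagen, are transcribed away from each other on chromosome 8, with annotated starts 21 bases apart (11312826 on the minus and 11312805 on the plus strand, RefSeq, GRCm38.p6). *Col4a1* lay at 0.714 to 5.47 (median 2.36) against 2.39 to 588 (median 249), and *Col4a2* at 0.803 to 5.42 (median 1.27) against 1.41 to 424 (median 134). In pairs 1, 2, 3, 5 and 6 both were over 100 in every GFP-negative library and under 6 in every GFP-positive one (*Col4a1* log2 difference -5.40, SE 0.82, adjusted p = 0.0325 with 6 pairs and log2 difference -6.52, SE 0.30, adjusted p = 4.25e-06 without pair 4, *Col4a2* log2 difference -4.90, SE 0.70, adjusted p = 0.0325 and log2 difference -5.86, SE 0.25, adjusted p = 4.25e-06). The laminin genes *Lama1* (log2 difference -4.49, SE 0.32, adjusted p = 0.000108) and *Lamb1* (log2 difference -5.31, SE 0.45, adjusted p = 0.000247) were called in both fits.

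The other genes with the largest lower values were mixed in kind. *Srgn*, the core protein of a granule proteoglycan, was at 0 to 3.28 (median 1.58) against 2.71 to 886 (median 139) (log2 difference -5.62, SE 0.78, adjusted p = 0.0325 and log2 difference -6.68, SE 0.29, adjusted p = 4.25e-06), and the pepsinogen gene *Pga5* at 0 to 3.01 (median 0.710) against 0.394 to 478 (median 216) (log2 difference -5.54, SE 0.79, adjusted p = 0.0325 and log2 difference -6.55, SE 0.42, adjusted p = 6.49e-05). *Epas1*, a hypoxia-inducible factor gene, was at 0.0911 to 0.834 (median 0.492) against 1.79 to 202 (median 25.8) (log2 difference -4.20, SE 0.64, adjusted p = 0.0325) and did not overlap between the fractions (GFP-positive all below, as for 0.502% of the genes tested). The pancreatic colipase gene *Clps* (-4.81), the heparan sulfate sulfotransferase gene *Hs3st1* (-4.72), the endoplasmic reticulum retention receptor gene *Kdelr3* (-4.40), the calcium-binding protein gene *S100g* (-5.67) and the tetraspanin gene *Tspan8* (-5.32) were called in both fits.

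**Figure D3:**
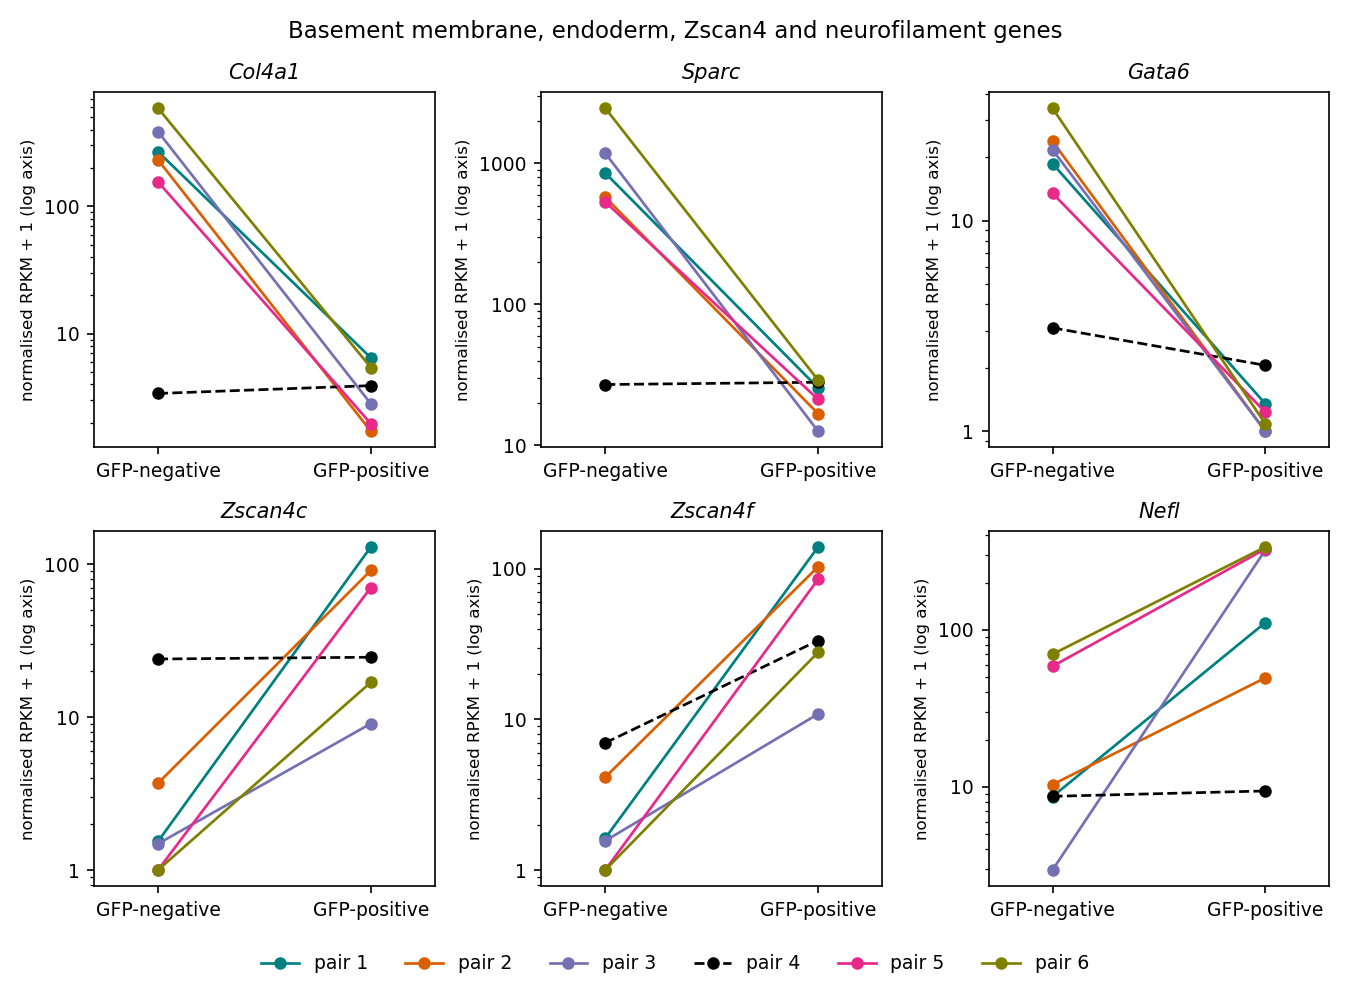
Normalised RPKM + 1 (log axis) of 6 genes in the 12 libraries, with the libraries of a pair joined and pair 4 dashed. The basement membrane genes *Col4a1* and *Sparc* and the endoderm factor *Gata6* fall steeply towards GFP-positive cells in 5 pairs, *Zscan4c*, *Zscan4f* and the neurofilament gene *Nefl* are higher in the GFP-positive library of 6 of 6 pairs, and the dashed line of pair 4 is flat for *Col4a1*, *Sparc*, *Zscan4c* and *Nefl*.

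The floor plate factor *Foxa2*, which endoderm also expresses, was lower in GFP-positive cells in both fits, at 1.25 to 14.5 (median 2.53) against 1.10 to 68.3 (median 31.6) (log2 difference -2.29, SE 0.43, adjusted p = 0.0453 and log2 difference -2.77, SE 0.31, adjusted p = 0.00129), and it was the only one of 10 floor plate genes tested that was called lower. Ventral interneuron factors (9 tested) and transmitter genes of other neuron classes (4 tested) had no member called in either fit, with *Sox21* called lower without pairs 2 and 4. Among 8 genes of mesoderm, muscle and vessels and 6 glial genes, *Pdgfra*, a growth factor receptor of mesoderm and oligodendrocyte precursors, was called lower without pair 4 (-3.02), as was the glial factor *Sox8* (-1.24). None of 7 neural crest and 16 germline genes was called in either fit, against 0.747% (6 pairs) and 4.66% (without pair 4) of all genes tested.

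A further set higher in GFP-positive cells was not neuronal. *Zscan4* genes are a cluster of near-identical copies on chromosome 7 that encode zinc finger proteins, are transcribed in the late 2-cell embryo and switch on in a small share of cultured embryonic stem cells at a time. They made up the 5 largest differences among the genes called higher with 6 pairs. Their promoters are shown as a description of how alike the copies are before their annotated starts. The likeness of the transcripts, to which reads are assigned, was not measured. The following stretches of 126 bases (RefSeq, GRCm38.p6, each on the strand of its gene, 5′ to 3′) hold the letters TATAAA in capitals, with 100 bases before and 20 after.
Zscan4b (chr7:10905056-10905181, minus strand): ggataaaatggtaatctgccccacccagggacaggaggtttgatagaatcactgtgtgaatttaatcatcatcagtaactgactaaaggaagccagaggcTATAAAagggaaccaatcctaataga
Zscan4c (chr7:11005591-11005716, plus strand): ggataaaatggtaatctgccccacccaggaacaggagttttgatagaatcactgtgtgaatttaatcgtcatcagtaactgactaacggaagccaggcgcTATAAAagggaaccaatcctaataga
Zscan4d (chr7:11166188-11166313, minus strand): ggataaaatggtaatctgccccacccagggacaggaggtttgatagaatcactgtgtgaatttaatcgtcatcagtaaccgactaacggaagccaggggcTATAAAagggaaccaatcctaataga
Zscan4f (chr7:11397784-11397909, plus strand): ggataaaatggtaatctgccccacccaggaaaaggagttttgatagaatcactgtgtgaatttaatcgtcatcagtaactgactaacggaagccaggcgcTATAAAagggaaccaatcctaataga
Of their 126 bases, *Zscan4c* and *Zscan4f* shared 125 (99.2%), and any other 2 of the 4 copies shared 119 to 122 (94.4% to 96.8%), without gaps. On the strand of the gene, the letters TATAAA occurred once in the promoter window of each of the 4 genes, 31 to 65 bases before the annotated start. On either strand, a wider search, they occurred in 7.19% of 13438 windows of 300 bases around the starts of 10474 genes tested. This is a description and not a site.

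*Zscan4f* (chromosome 7, 11397915 to 11402318, GRCm38) ran from 9.87 to 139 (median 58.3) in GFP-positive and from 0 to 5.99 (median 0.594) in GFP-negative libraries, with GFP-positive all above as for 0.136% of the genes tested (log2 difference 4.56, SE 0.53, adjusted p = 0.0325 and log2 difference 5.02, SE 0.49, adjusted p = 0.000642). *Zscan4c* was at 8.07 to 129 (median 46.5) against 0 to 23.0 (median 0.512) (log2 difference 3.98, SE 0.70, adjusted p = 0.0419 and log2 difference 4.77, SE 0.51, adjusted p = 0.000995), the highest GFP-negative value being that of pair 4, at 23.0 beside 23.6 in its partner. *Zscan4d* (4.23) and the pseudogenes *Zscan4-ps1* (4.31) and *Zscan4-ps2* (4.87) were called in both fits, and *Zscan4b* (3.37), *Zscan4e* (3.49) and *Zscan4-ps3* (4.38) without pair 4. How the counting shared reads among the copies is not given in the sources used here, so single copies are uncertain and their sum is the firmer value. Summed over the 8 copies tested, the GFP-positive libraries of pairs 1 to 6 held 747.5, 618.8, 48.9, 146.7, 399.6 and 114.1 normalised RPKM. Their GFP-negative partners held 2.96, 23.9, 1.53, 97.0, 0 and 0. The sum was higher in the GFP-positive library of every pair, least so in pair 4. Of the 15 genes of the 2-cell embryo state that were tested, 5 were called higher with 6 pairs and 8 without pair 4, the same 8 copies with none lower, and 14 of the 15 had a positive difference. The other 7, which include no *Zscan4* copy, were called in neither fit.

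Genes of pluripotency were not called as a group. Of 18 tested, none was called with 6 pairs, and *Klf4* was called lower without pair 4 (log2 difference -3.17, SE 0.58, adjusted p = 0.0152), at 0.219 to 13.7 (median 1.63) against 10.5 to 87.6 (median 15.5). The median of the list moved between pairs, from -0.45 in pair 2 to 2.54 in pair 5. The summed level of the 3 pluripotent cell markers was 0.215 to 196.3 in GFP-positive and 1.17 to 229.7 in GFP-negative libraries, the highest of each fraction in pair 4, and it was higher in the GFP-positive library of 3 of 6 pairs.

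**Figure D4:**
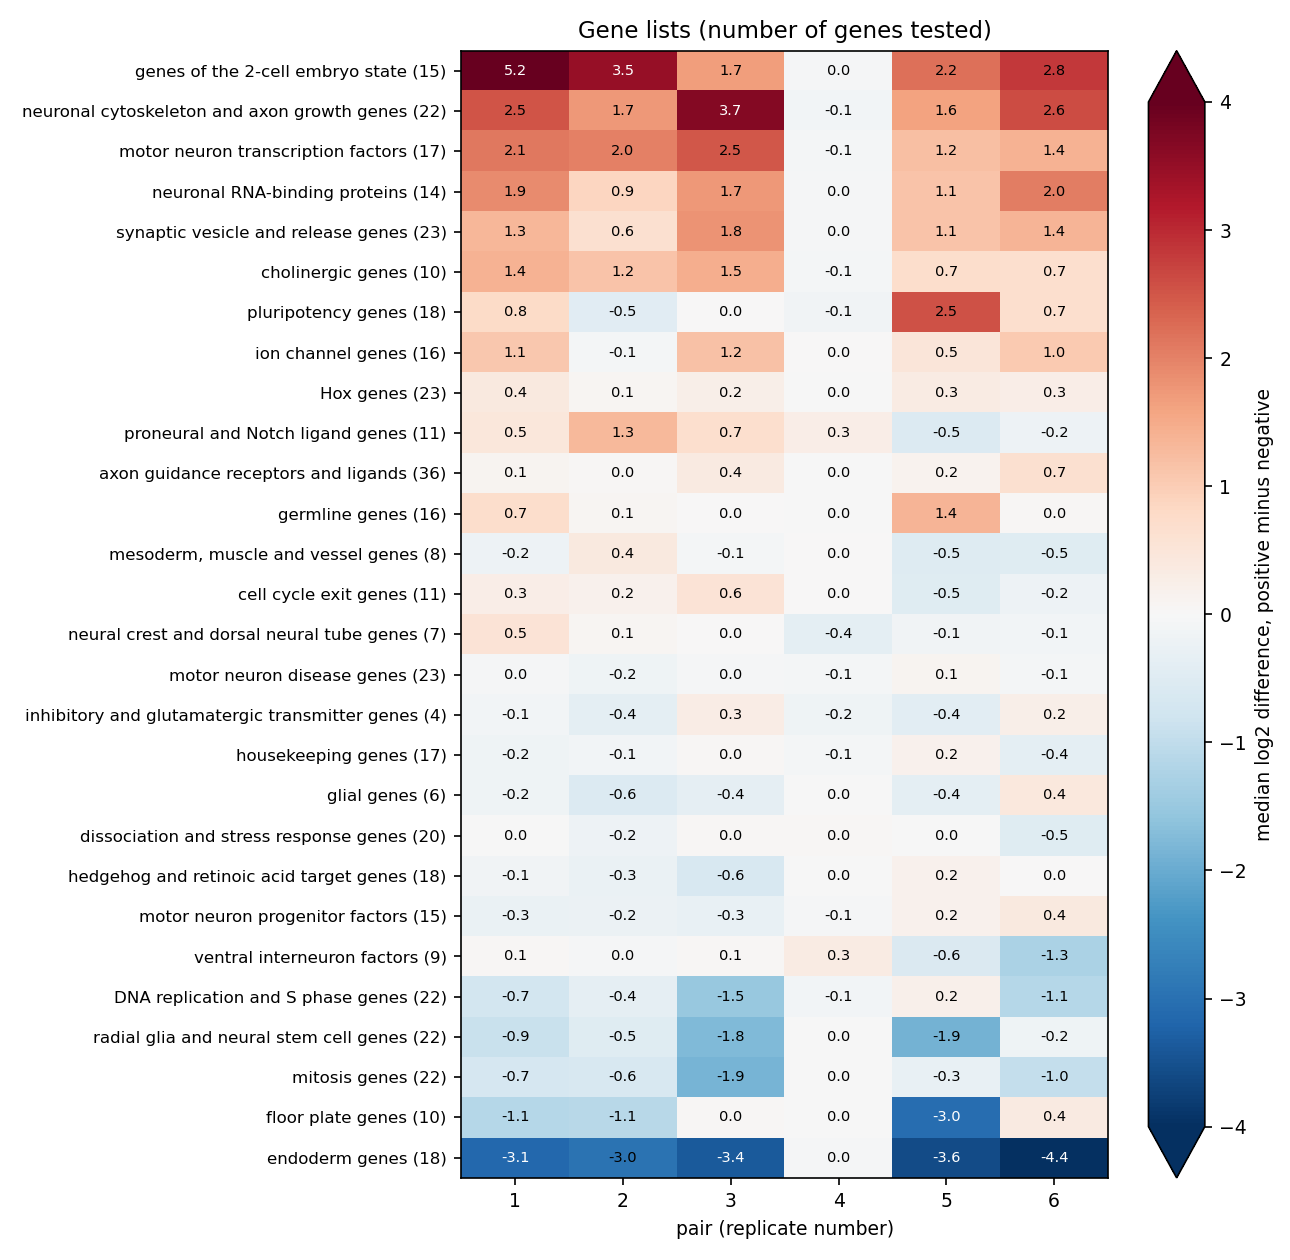
Rows are the 28 gene lists with the number of genes tested, columns are the 6 pairs, and each cell gives the median log2 difference of the list in that pair (GFP-positive minus GFP-negative, log2 of normalised RPKM + 1; the color scale ends at 4 and -4). Lists are ordered by their median without pair 4, from 3.37 for genes of the 2-cell embryo state to -3.32 for endoderm genes, and the column of pair 4 lies between -0.39 and 0.32 throughout.

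The remaining genes with the largest differences among those called higher were neuronal or of mixed function. *Slc10a4*, a vesicular transporter-like gene of cholinergic and monoaminergic neurons, was at 3.20 to 88.0 (median 41.8) against 0 to 15.6 (median 2.22) (log2 difference 3.17, SE 0.54, adjusted p = 0.0394 and log2 difference 3.68, SE 0.47, adjusted p = 0.00276). The long noncoding RNA gene *Snhg11* (log2 difference 2.11, SE 0.38, adjusted p = 0.0432) and *Nell2*, which encodes a secreted neural protein (log2 difference 2.05, SE 0.36, adjusted p = 0.0419), were called in both fits. *Sst*, the gene of the neuropeptide somatostatin, had one of the largest differences without pair 4, at 6.16 to 189.7 (median 59.4) against 0 to 15.8 (median 2.31), higher in 6 of 6 pairs (log2 difference 4.50, SE 0.77, adjusted p = 0.0115 without pair 4, log2 difference 3.83, SE 0.82, adjusted p = 0.0583 with 6 pairs).

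Some members of the lists chosen as a check passed without pair 4, where 4.66% of all genes tested were called. None of 17 housekeeping genes was called in either fit (median -0.088 without pair 4, with *B2m* called lower without pairs 2 and 4). Of 20 genes of dissociation and stress, the immediate early gene *Fos* was called lower without pair 4 (-1.50). Of 23 genes of inherited motor neuron disease that were tested, the kinesin gene *Kif5a* was called higher (2.50) and the angiogenin gene *Ang*, at or near 0 in GFP-positive libraries, lower (-1.87) without pair 4, and none with 6 pairs.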

How the data were processed

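Libraries were made with SMART-seq2 from poly(A) RNA of sorted fractions, without molecular identifiers. Per the labels, reads were mapped to mm10 (GRCm38) with HISAT2 2.0.3, and the authors computed the RPKM values that were deposited, with no read counts. The study's own comparisons used DESeq2 1.12.4 on counts, which is not repeated here.

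The deposited RPKM of the 12 spinal libraries were divided by median-ratio factors over 9962 genes and compared as log2(value + 1) with limma 3.58.1 in R 4.3.3 (trend moderation, Benjamini-Hochberg adjustment, threshold 0.05), with the pair as a block. Genes above 0.1 RPKM in at least 6 libraries were tested. The replicate numbers were taken as pairs in advance. In a check, deviations from the group means correlated in 6 of 6 pairs (r from 0.414 to 0.640). A library of pair 6 correlated more with one of another number (0.593) than with its partner (0.546). In pair 5 these values were 0.495 and 0.611. The check therefore cannot establish the pairing. Tables and figures used Python 3.11.15, numpy 2.4.6, pandas 2.3.3 and matplotlib 3.10.9, and the fit was tested on simulated data.

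Depth was estimated from RPKM steps in 5911 single-transcript genes, in which 96.0% to 97.8% of the values under 10 reads lay within 2% of whole reads. One read on a transcript of 1 kb was worth 0.131 to 1.34 RPKM, so values below this rest on a few reads. Positions are those of GENCODE M21, in which 22149 genes had 1 position, and 391 entries were at 0 in all spinal libraries.

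The text names 12 markers, the 10 genes with the largest difference in each direction and fit (called, same sign in every pair fitted, mean at least 5 RPKM, unnamed gene models skipped) and list members that were called. List members that were not called are counted but, apart from the markers, genes of the summed cell type markers and *Aldh1a2*, not named. *Irx5*, *Ccna2*, *Sox21*, *B2m* and the genes of the last part were picked after their values were seen. The pairs, members and lists were chosen with earlier results of these data known. Lists carry no test and are given as counts and medians.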

Additional observations from a re-analysis of the deposited data

Results flagged for a closer look

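Values of 5 libraries or genes stood apart from the other 5 libraries of their fraction (the gap to the nearest library, as a share of the range, was above Dixon's critical value, which chance alone passes in about 1 in 20 groups). *Isl1* was at 6.29 normalised RPKM in GFP-positive 4, and *Lhx1* was at 3.29 in GFP-negative 4, both in the pair whose fractions were alike. *Slc5a7* was at 1.06 in GFP-negative 5, where the other 5 GFP-negative libraries were at 0. The 3 gene models *Gm10800*, *Gm10801* and *Gm21738* took 68.8% of the summed RPKM of GFP-negative 2 and 17.8% of that of GFP-positive 2.

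These 3 gene models were higher in the GFP-negative library of 6 of 6 pairs. *Gm10800* ranged from 37.1 in GFP-positive 4 to 570150 normalised RPKM in GFP-negative 2, and the ratio of GFP-negative to GFP-positive ran from 1.42 to 16.7 over the pairs. *Gm10801* was called lower in GFP-positive cells in both fits (log2 difference -2.20, limma adjusted p = 0.0453 with 6 pairs, and -2.42, adjusted p = 0.0152 without pair 4). *Gm10800* and *Gm21738* were called without pair 4 only. What these reads derive from was not tested.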

How the results depend on the processing

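With 6 pairs, 110 genes were called, against 180 with the deposited RPKM not rescaled, 174 with the filter at 1 RPKM, 0 with a filter above 0 RPKM in 2 libraries (2736 at an unadjusted p under 0.05), 34 with no replicate block (5 higher and 29 lower), 1202 in a fit of all 24 libraries, 0 within replicates 1 to 4 and 50 within replicates 5 and 6. Leaving out each of pairs 1, 2, 3, 5 and 6 gave 0 each time. Without pair 4, 687 were called, against 255 with the looser filter, 235 with no replicate block (84 higher and 151 lower), 1810 with all 24 libraries, 132 within replicates 1 to 3 and 50 within replicates 5 and 6. Leaving out a further pair gave 238 (pair 3) to 620 (pair 2), with 282 without pair 1 and 328 without pair 6. No called gene that the text names changed direction under any alternative. Of 274 values of named genes in both fits, those that stayed on their side of the threshold numbered 266 with robust moderation, 262 with sample quality weights, 252 with an offset of 0.1 RPKM, 244 with the deposited RPKM, 194 with the oculomotor libraries added, 187 with no replicate block, 177 with the looser filter, 181 to 206 without 1 of pairs 1, 2, 3, 5 or 6 and 141 within replicates 5 and 6. The cause of the moved counts was not tested.

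With an offset of 0.1 RPKM the list medians of 6 pairs moved to 2.08 for cholinergic, 1.84 for synaptic, 1.21 for ion channel, 4.48 for 2-cell state and -0.61 for glial genes, all with the same sign. *Olig2*, called in no fit, ranged from -0.050 (without pair 2) to 0.48 with a pair left out of 6, and from -0.049 (without pairs 2 and 4) to 0.62 with a further pair left out beside pair 4. The difference in detected genes turned to 31.8 at a threshold of 1 RPKM (exact sign permutation p = 0.781) and ranged from -900.2 to 336.8 when a pair was left out. With pairs 2 and 4 both left out, an alternative chosen after seeing the data, 9 motor neuron factors, 3 cholinergic and 5 ion channel genes were called higher and 1 glial gene lower, and the other counts that moved stand beside their lists in the text. Low depth limits genes under about 1 RPKM most.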

Other observations

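Of the genes of hormone and peptide storage granules, 5 that were picked because their values were high are described here, with no list or test behind the group. *Chga*, the gene of the granule protein chromogranin A, was called in both fits (log2 difference 1.77, limma adjusted p = 0.0373 with 6 pairs, and 1.92, adjusted p = 0.0102 without pair 4), with 1.74 to 33.4 against 0 to 5.86 normalised RPKM. The secretogranin gene *Scg2* was at 6.78, 0.652, 35.8, 55.3 and 115 in GFP-positive libraries 1, 2, 3, 5 and 6 against 0.325, 0, 0, 7.82 and 0.081 in their partners (3.58, adjusted p = 0.0232), and in pair 4 it was at 0.084 against 0.148. *Scg3* (1.93), *Scg5* (2.12) and *Resp18* (2.73) were called without pair 4. *Resp18* was higher in 4 of 6 pairs and reached 204 and 192 in GFP-positive 5 and 6, against at most 40.3 in the other GFP-positive libraries.

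In the same way, 8 genes of collagen folding and of the basement membrane were picked because they were low in GFP-positive cells. *Serpinh1*, the collagen chaperone HSP47, was at 8.19 to 44.3 in GFP-positive and at 37.0 to 262 in GFP-negative libraries (log2 difference -2.59, limma adjusted p = 0.0373 with 6 pairs, and -3.11, adjusted p = 0.000391 without pair 4). The lysyl hydroxylase gene *Plod2* (-2.78 without pair 4) did not overlap between the fractions (GFP-positive all below, as for 0.502% of the genes tested), and it and the cartilage-associated protein gene *Crtap* (-3.51) were called in both fits. The prolyl hydroxylase genes *P3h1* (-2.80) and *P4ha2* (-2.57) were called without pair 4. The nidogen genes *Nid1* (-3.91, without pair 4) and *Nid2* (-3.18, both fits) and the laminin gene *Lamc1* (-3.82, both fits), whose products join type IV collagen in the basement membrane, were also lower. In pair 4 these 3 were at 8.58, 18.7 and 12.0 in the GFP-positive and at 5.73, 20.5 and 11.4 in the GFP-negative library, so that either fraction held them.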
